A study of Mus musculus with 12 samples.

Results

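The genes described here are 10 genes of blood vessel endothelium, the cell layer that lines blood vessels: the receptors Kdr, Tek and Tie1, the transcription factors Sox17 and Sox18, and the secreted or surface genes Egfl7, Eng, Emcn, Plvap and Vwf. They were chosen by symbol, as rows of the gene count table whose Ensembl ID maps to these names, with earlier results of these data known. All 10 were found among the 31078 genes of the table as used here, and all 10 passed the filter on low counts that left 9519 genes for testing, with 252 counts in the lowest library of Sox17 and 3471 in the highest of Eng. RNA was measured by sequencing in 12 libraries of lung from mouse embryos of the C57BL/6 background, collected at embryonic day 12.5. The groups were IntuKO left lungs, IntuKO right lungs, wt left lungs and wt right lungs, with 3 numbered libraries in each. IntuKO embryos are labelled as knockouts of Intu, a gene whose product helps to build the primary cilium, and wt embryos as wild type; the labels give natural matings of parents that carry the knockout allele. No Cre driver, transgene or treatment is given. The lungs were bulk tissue. The labels do not say whether a library pooled embryos, nor whether each library of a group is another embryo. The p-values therefore weigh differences against a spread between libraries, and the number of embryos behind it is not known.

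Endothelial cells receive growth signals through KDR, the main receptor for vascular endothelial growth factor A, and signals for vessel stability through TEK, the angiopoietin receptor, which acts together with the related receptor TIE1. SOX17 and SOX18 are closely related transcription factors of the SOXF group, which act in arterial and lymphatic endothelial development. In the embryonic lung a vessel network grows within the mesenchyme around the branching airways, and the KDR, TEK and endoglin pathways are known to be needed for normal vessel growth.

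The start regions of 3 members are shown because ETS proteins, a family of transcription factors, are known to act at many endothelial promoters. The capitals mark each GGAA and, for the other strand, TTCC, the core letters of an ETS motif. The sequences are RefSeq start regions of the GRCm38.p6 build, 250 bases before to 50 bases after the start, written 5′ to 3′ on the gene's strand. They lie at chr5:75978406-75978705 on the minus strand for Kdr, chr4:118489800-118490099 on the minus strand for Tie1 and chr2:32646345-32646644 on the plus strand for Eng.
Kdr: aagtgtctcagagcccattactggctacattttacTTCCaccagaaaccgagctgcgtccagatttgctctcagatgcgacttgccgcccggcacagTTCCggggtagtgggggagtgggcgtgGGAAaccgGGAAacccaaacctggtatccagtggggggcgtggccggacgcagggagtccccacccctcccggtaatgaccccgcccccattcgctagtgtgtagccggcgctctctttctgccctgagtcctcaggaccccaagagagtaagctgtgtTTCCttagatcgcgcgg
Tie1: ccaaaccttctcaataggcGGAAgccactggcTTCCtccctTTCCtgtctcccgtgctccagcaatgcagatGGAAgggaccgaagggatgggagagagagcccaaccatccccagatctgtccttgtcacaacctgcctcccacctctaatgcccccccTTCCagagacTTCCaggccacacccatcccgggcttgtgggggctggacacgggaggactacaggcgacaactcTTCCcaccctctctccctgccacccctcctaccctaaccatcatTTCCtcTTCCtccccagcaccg
Eng: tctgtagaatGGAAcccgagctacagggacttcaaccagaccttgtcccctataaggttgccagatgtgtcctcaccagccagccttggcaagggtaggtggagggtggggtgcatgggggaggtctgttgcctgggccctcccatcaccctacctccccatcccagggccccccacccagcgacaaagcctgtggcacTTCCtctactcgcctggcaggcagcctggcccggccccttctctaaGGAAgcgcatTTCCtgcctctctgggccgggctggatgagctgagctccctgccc

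Both strands were searched, and the core was found 5 times for Kdr, 9 times for Tie1 and 4 times for Eng. GGAA or TTCC occurs in 96.0% of 32851 mouse start regions of this length, with a median of 3 matches. Start regions were found for 6 of the 10 members, 8 regions in all, since Egfl7 has 3. Tek had 2 core matches, Emcn 6, and the regions of Egfl7 5, 4 and 1. The longer letters AGGAAG (or CTTCCT on the other strand), which contain the core, occur in 35.4% of all start regions; they were found 2 times each for Tie1, Eng and Emcn, 3 and 2 times in a pair of the Egfl7 regions, and not in the third one, in Kdr or in Tek. The core letters of a SOX motif, ACAAT (or ATTGT), occur in 31.0% of all start regions and were found 2 times for Tek and once for Emcn, and in none of the other 6 regions of members. A match is a description of the letters in this window.

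Egfl7 also hosts a microRNA known for its role in endothelial cells, miR-126a, whose hairpin lies inside the Egfl7 gene on chromosome 2. The mature 3p sequence is given with its seed, bases 2 to 8, in capitals, at chr2:26591402-26591423 on the plus strand (RefSeq, GRCm38.p6).
mmu-miR-126a-3p: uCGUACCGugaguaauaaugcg

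The gene row of the hairpin held 0 counts in all 12 libraries, which allows up to 3 counts in each, so the table gives no level for it. Reads of Egfl7 that fall where it overlaps Agpat2 on the opposite strand cannot be told apart from Agpat2, since the sources used here do not give whether counting used strand. The same holds for the overlaps of Eng with Fpgs and of Plvap with Gtpbp3.

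The labels were checked first. Intu, on chromosome 3 (40531286 to 40704774, GRCm38), averaged 26.9 ± 0.67 and 29.5 ± 1.69 CPM, that is, counts scaled to a common library total, in IntuKO left and right lungs, against 31.2 ± 1.13 and 31.8 ± 3.1 CPM in wt left and right lungs (SD, n = 3). The difference of -0.16 (SE 0.06) on the log2 scale did not pass edgeR's quasi-likelihood test (Benjamini-Hochberg adjusted p = 0.162), and the gene row does not say which exons the allele removes. Gli1, a target of Hedgehog signalling, ranged over 151 to 186 CPM in the 6 IntuKO libraries against 345 to 394 CPM in the 6 wt libraries, with a log2 difference of -1.10 (SE 0.05, edgeR adjusted p = 1.54e-08). The counts summed to between 10290103 and 10753386 per library, over chromosomes 1 to 7, 10, X and part of 8. Left and right libraries with one number deviated together within a genotype, with correlations of 0.253 to 0.486 in the 6 pairs. Xist, which is expressed in female cells, was lower in IntuKO lungs (508.5 ± 397 and 493.5 ± 449 CPM in left and right lungs) than in wt lungs (1702 ± 449 and 1876 ± 479 CPM; edgeR log2 difference -1.83, adjusted p = 0.0357), a call lost in the fit of left and right summed (edgeR adjusted p = 0.216) and in 11 of 18 fits that left out a library or pair; the part of embryo sex in the results was not tested. Alb, a gene of liver, reached 40.3 CPM in IntuKO left 1, against 0.0933 to 2.69 CPM in the other 11 libraries.

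Per kilobase of gene length, a scale on which genes can be compared, Plvap was the most abundant of the 10. PLVAP forms the diaphragms of small pores in the endothelial membrane. It averaged 91.6 ± 8.2 CPM per kilobase over the 12 libraries (SD). Eng, a co-receptor for signals of the transforming growth factor beta family, followed with 61.8 ± 10.2, and Sox18 with 51.7 ± 6.4 CPM per kilobase. Tie1 (39.5 ± 2.82) and Egfl7 (39.2 ± 4.94), which encodes a protein that endothelial cells secrete into their matrix, lay level with each other. Kdr had 25.8 ± 2.53 CPM per kilobase and Tek 19.1 ± 1.97. Emcn, which encodes a sialomucin of the endothelial surface, had 12.2 ± 0.899, Sox17 7.17 ± 1.17 and Vwf, which encodes the clotting protein von Willebrand factor, 2.74 ± 0.729 CPM per kilobase. In every library Plvap lay above Eng, Eng above Sox18 and Sox18 above Egfl7, although the ranges over libraries overlapped for each of these pairs of genes. Tie1 and Egfl7 changed order between libraries. Below them every library had Kdr, Tek, Emcn, Sox17 and Vwf in that order, with ranges over libraries that did not overlap. Vwf also varied most, 2.44-fold between its lowest and its highest library, and Tie1 least, 1.25-fold.

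**Figure D1:**
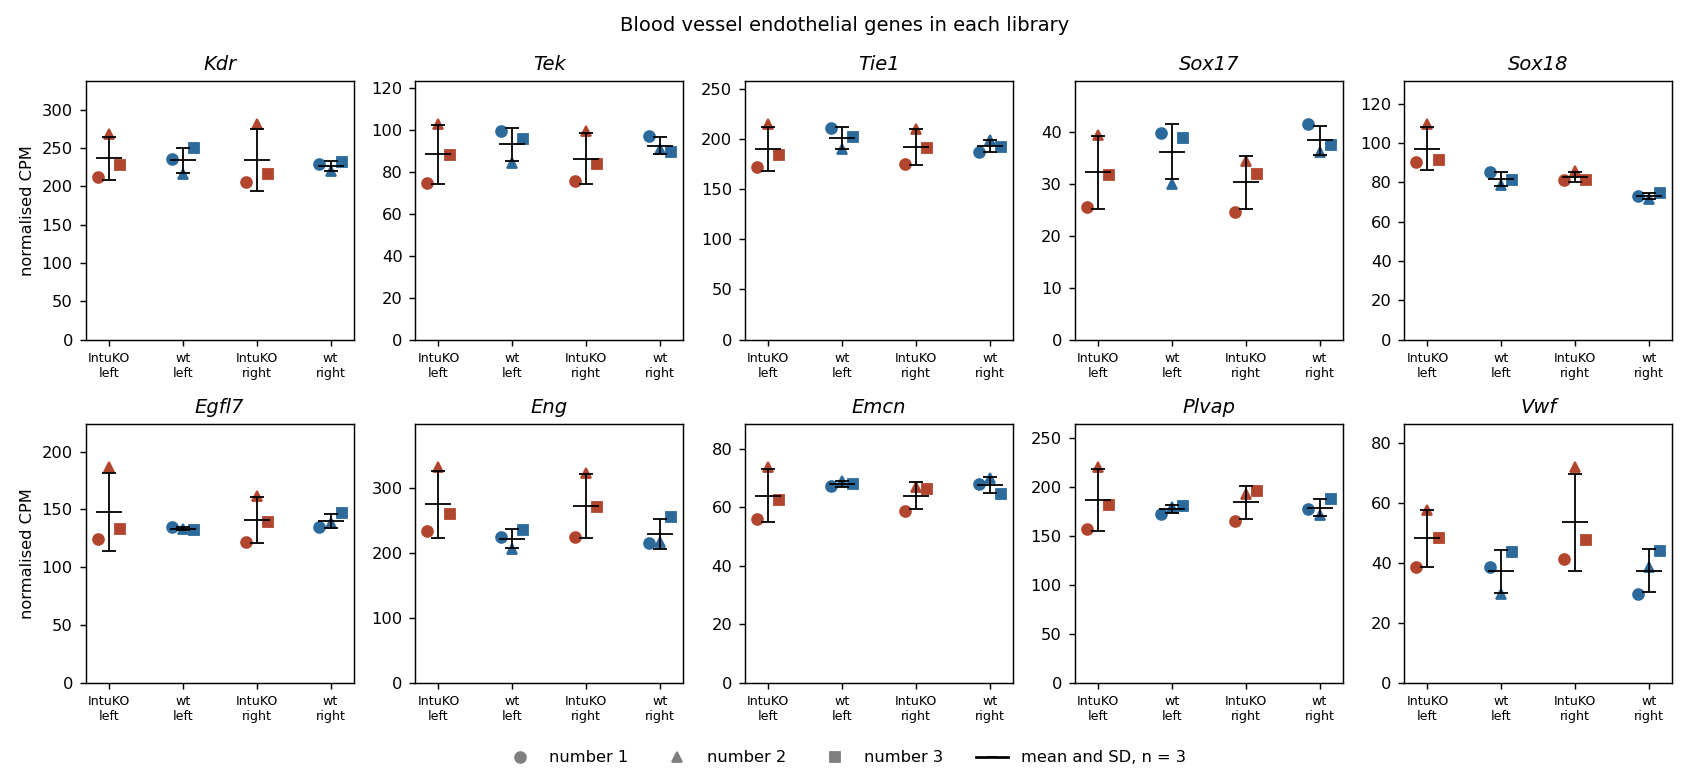
Normalised CPM (y axes, from 0) of each of the 10 genes in every library, by group (x axes); marker shapes give the library's number and black bars the group mean and SD (n = 3). Sox18 lies above the wt libraries of the same side in every IntuKO library, and the library numbered 2 is the highest IntuKO left library for all 10 genes.

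Compared between IntuKO and wt lungs, with both sides weighted equally, the endothelial genes differed little as a group. Sox18 was called higher in the main test, and the other 9 did not pass it. This test took each library as its own sample and ignored the correlation within numbered pairs (0.253 to 0.486). Its p-values may therefore be too small. Sox18 was not called with left and right summed (edgeR adjusted p = 0.164) or with pairs as a random block (limma-voom adjusted p = 0.07). A block by number across genotypes kept the call (edgeR adjusted p = 0.0297). That block joins IntuKO and wt libraries of one number, whose deviations correlated at -0.121 to -0.0416. It does not model the left and right pairs within a genotype. The kept call is therefore no check on the correlation within pairs. Of the 10 genes, 1 was called higher and 0 lower at an adjusted p under 0.05 (edgeR's quasi-likelihood test, Benjamini-Hochberg over 9519 genes). Across all genes tested, 5.7% were called, 2.08% higher and 3.62% lower, so 1 of 10 is near what all genes showed. The log2 differences ran from -0.25 for Sox17 to 0.44 for Vwf, 6 positive and 4 negative, with a median of 0.04 beside 0.00 over all genes. DESeq2 called 2 of the 10, Eng and Sox18 (6.99% of all genes), and edgeR with no filter on low counts called 4, Sox17, Eng, Sox18 and Vwf (5.77% of all genes). The unfiltered fit gave smaller standard errors for much the same differences, 0.07 for Vwf against 0.15 in the main fit. For Xist, which varied widely between IntuKO libraries, the SE was 0.05 against 0.47. Its calls are therefore not on a par with those of the main fit. Without adjustment, 4 of the 10 (Sox17, Sox18, Eng and Vwf) had a p under 0.05, against 19.7% of all genes. In bulk lung, fewer endothelial cells and less of a transcript per cell cannot be told apart. In left lungs alone 0 of the 10 were called (1.18% of all genes) and 2 had an unadjusted p under 0.05 (10.9% of all genes). In right lungs 0 were called (1.51% of all genes) and 3 had an unadjusted p under 0.05 (13.5% of all genes).

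**Figure D2:**
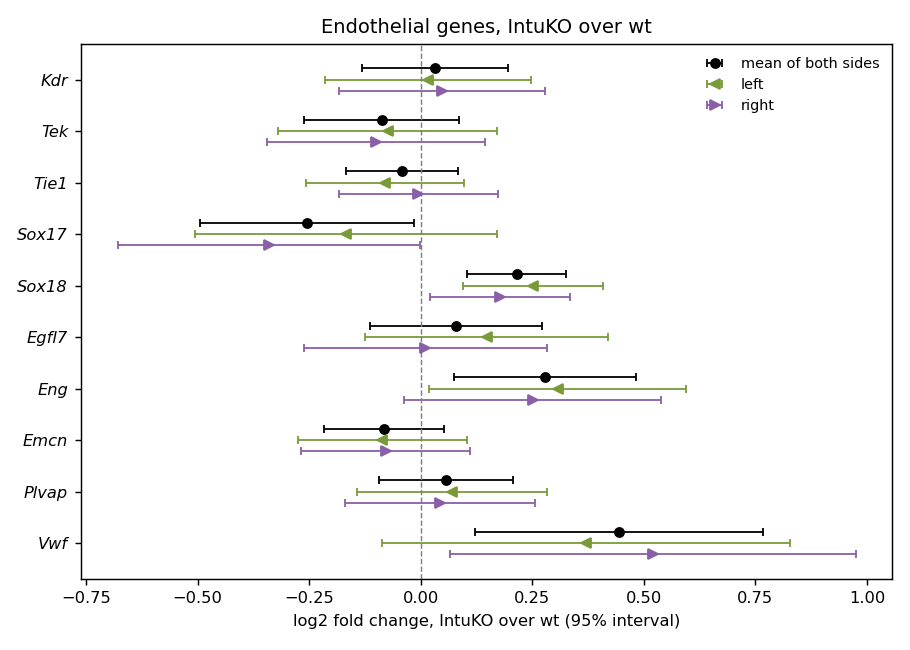
Log2 difference of IntuKO over wt lungs (x axis) for each of the 10 genes, as the mean of both sides and within left and right lungs; points are edgeR estimates and bars 95% confidence intervals. The interval of Sox18 lies above 0 in all 3 comparisons and that of Sox17 below 0 for the mean of both sides and in right lungs.

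The transcription factors Sox17 and Sox18, both of the SOXF group, lay on opposite sides of 0. Sox18 (chr2:181669836-181671640, minus strand) had 90.5, 109.7 and 91.6 CPM in IntuKO left lungs, against 85.5, 78.6 and 81.1 CPM in wt left lungs. In right lungs it had 81.2, 85.6 and 81.2 CPM in IntuKO, against 73.0, 71.5 and 74.8 CPM in wt. On each side all 3 IntuKO libraries lay above all 3 wt libraries, which held for 1 of the 10 genes on both sides in the same direction and for 5.8% of all genes (2.23% higher). Sox18 was 1.16-fold higher in IntuKO lungs, a log2 difference of 0.21 (SE 0.05, 95% interval 0.10 to 0.33, edgeR adjusted p = 0.0257). Within one side the difference was 0.25 (SE 0.07, edgeR adjusted p = 0.133) in left and 0.18 (SE 0.07, edgeR adjusted p = 0.299) in right lungs. The call was lost in several other fits: when the left and right counts of a number were added to make 1 sample (3 against 3) the difference was 0.22 with an edgeR adjusted p of 0.164 (1.38% of all genes called), and with the pairs as a random block in limma-voom the adjusted p was 0.07 (3.61% called). Leaving out IntuKO right 2 (edgeR adjusted p = 0.0586), wt left 2 (0.064), wt left 3 (0.0572), wt right 1 (0.0506) or wt right 2 (0.0714) ended the call, as did leaving out both sides of IntuKO 3 (0.0506), wt 1 (0.0676), wt 2 (0.143) or wt 3 (0.0729). The difference stayed positive, at 0.15 to 0.25, in all 18 fits that left out a library or a pair.

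Sox17 (chr1:4490931-4497354, minus strand), which acts in arterial endothelium, had 25.5, 39.4 and 31.6 CPM in IntuKO left lungs, against 39.7, 30.0 and 38.7 CPM in wt left lungs. In right lungs it had 24.6, 34.4 and 31.8 CPM in IntuKO, against 41.5, 36.1 and 37.4 CPM in wt. The right groups did not overlap, with all IntuKO libraries below all wt libraries, while the left groups overlapped. In right lungs 2 of the 10 genes had groups that did not overlap, Sox18 and Sox17, against 18.2% of all genes, and in left lungs 1, Sox18, against 15.3%. The log2 difference of Sox17 was -0.25 (SE 0.11, 95% interval -0.49 to -0.01, edgeR adjusted p = 0.224) for the mean of both sides. Without both libraries of IntuKO 2 it was -0.39 with an edgeR adjusted p of 0.0465, the only 1 of the 18 leave-out fits that called it. The ratio of Sox18 to Sox17 CPM was 3.54, 2.79 and 2.90 in IntuKO left lungs and 3.30, 2.49 and 2.55 in IntuKO right lungs, against 2.15, 2.62 and 2.09 in wt left lungs and 1.76, 1.98 and 2.00 in wt right lungs. This ratio was chosen after the values were seen and was not tested.

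Among the surface and secreted genes, Eng and Vwf had the largest differences, neither past the test. Eng (chr2:32646595-32682669, plus strand) had 233.6, 332.7 and 259.9 CPM in IntuKO left lungs, against 225.0, 206.8 and 236.0 CPM in wt left lungs, and 225.4, 323.4 and 271.1 CPM in IntuKO right lungs, against 215.4, 217.4 and 256.4 CPM in wt right lungs. The highest IntuKO library of each side was the one numbered 2, and the groups overlapped on both sides. The log2 difference was 0.28 (SE 0.09, 95% interval 0.08 to 0.48, edgeR adjusted p = 0.107), and without both libraries of IntuKO 2 it was 0.13. Eng was called higher when IntuKO right 1 (0.34, edgeR adjusted p = 0.0393) or both libraries of IntuKO 1 (0.40, edgeR adjusted p = 0.0113) were left out. Vwf (chr6:125546774-125686679, plus strand) had 38.4, 57.7 and 48.1 CPM in IntuKO left lungs, against 38.5, 29.5 and 43.7 CPM in wt left lungs. In right lungs it had 41.1, 71.8 and 47.7 CPM in IntuKO, against 29.7, 38.4 and 43.9 CPM in wt. The groups overlapped on both sides, and IntuKO right 2 was the highest of all 12 libraries. Its log2 difference was 0.44 (SE 0.15, 95% interval 0.12 to 0.77, edgeR adjusted p = 0.106), and without both libraries of IntuKO 2 it was 0.23. Without both libraries of IntuKO 1 Vwf was called higher (0.60, edgeR adjusted p = 0.0237). Vwf is also made in megakaryocytes, the platelet-forming cells. Of 5 measured megakaryocyte and platelet genes, 4 were called lower in IntuKO lungs (2 without the IntuKO libraries numbered 2), against 3.62% of all genes. Among those called, Gp6 (2 to 15 counts per library) and Gp9 (7 to 47) were low genes. The summed level of the 5 genes was 13.4 to 20.4 CPM in IntuKO against 23.0 to 53.9 CPM in wt libraries. Their part in the Vwf values was not tested.

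Egfl7 (chr2:26580014-26593120, plus strand) had 124.1 to 186.4 CPM in the 3 IntuKO left libraries and 122.0 to 161.3 CPM in the 3 IntuKO right libraries, against 132.0 to 134.8 and 134.5 to 146.8 CPM in wt left and right libraries. Emcn (chr3:137341067-137432185, plus strand) averaged 64.0 ± 8.91 and 63.9 ± 4.6 CPM in IntuKO left and right lungs, against 67.9 ± 0.942 and 67.4 ± 2.7 CPM in wt left and right lungs (SD, n = 3). Plvap (chr8:71497765-71511752, minus strand) averaged 186.7 ± 31.6 and 184.7 ± 17.0 CPM in IntuKO left and right lungs, against 177.9 ± 4.12 and 179.2 ± 8.61 CPM in wt (SD, n = 3). For these 3 genes the groups overlapped on both sides. Their log2 differences were 0.08 for Egfl7 (95% interval -0.11 to 0.27), -0.08 for Emcn (-0.22 to 0.05) and 0.06 for Plvap (-0.09 to 0.21), with edgeR adjusted p-values of 0.684, 0.51 and 0.713 in that order.

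The receptors did not pass the test in any comparison. Kdr (chr5:75932827-75978458, minus strand), the receptor for vascular endothelial growth factor, had 212.9, 268.3 and 228.6 CPM in IntuKO left lungs, against 235.5, 216.5 and 250.0 CPM in wt left lungs, and 206.4, 281.5 and 216.3 CPM in IntuKO right lungs, against 229.9, 219.8 and 231.4 CPM in wt right lungs. The wt values lay within the span of the IntuKO values on both sides, so the groups overlapped. The log2 difference was 0.03 (SE 0.08, 95% interval -0.13 to 0.20, edgeR adjusted p = 0.864). Tek (chr4:94739289-94874976, plus strand), the angiopoietin receptor, averaged 88.5 ± 14 and 86.3 ± 12.2 CPM in IntuKO left and right lungs, against 93.2 ± 7.91 and 92.5 ± 4.14 CPM in wt left and right lungs (SD, n = 3). Its log2 difference was -0.09 (SE 0.08, 95% interval -0.26 to 0.09, edgeR adjusted p = 0.606). Tie1 (chr4:118471191-118490061, minus strand), its partner, averaged 190.4 ± 22.2 and 192.2 ± 17.6 CPM in IntuKO, against 201.2 ± 10.8 and 192.9 ± 6.17 CPM in wt left and right lungs (SD, n = 3). The log2 difference of Tie1 was -0.04 (SE 0.06, 95% interval -0.17 to 0.08, edgeR adjusted p = 0.747).

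The IntuKO libraries varied together, and 1 pair stood apart. In IntuKO left 2 and IntuKO right 2 all 10 genes lay above their own mean over the 12 libraries, by 0.29 and 0.21 log2 units on average, and in IntuKO left 1 and right 1 they averaged 0.17 log2 units below it. Summed over the 10 genes, the levels were 1186, 1606 and 1309 CPM in IntuKO left lungs, against 1310, 1218 and 1328 CPM in wt left lungs. In right lungs they were 1175, 1527 and 1325 CPM in IntuKO, against 1254, 1253 and 1326 CPM in wt. The library numbered 2 was the highest of its IntuKO group for 10 of 10 genes on the left and 9 of 10 on the right, where Plvap was highest in IntuKO right 3. The same pair had the highest summed level of 15 glycolysis and low-oxygen genes, which was 7122, 10040 and 6370 CPM in IntuKO left lungs and 7062, 8756 and 6066 CPM in IntuKO right lungs, against 4948 to 5896 CPM in the 6 wt libraries. Of those 15 genes, with a median of 0.48 (0.25 without the pair), 8 were called higher in IntuKO lungs, against 2.08% of all genes. In the summed fit the 4 with the smallest p were not called (edgeR adjusted p = 0.135 for Pfkl, 0.155 for Ldha, 0.164 for Tpi1 and 0.192 for Pgk1). The summed level of 8 erythroid genes was also highest in number 2 within each IntuKO group. It was 2975, 3897 and 3041 CPM in IntuKO left and 2864, 3296 and 2517 CPM in IntuKO right lungs. In wt lungs it was 3011 to 3539 CPM on the left and 2224 to 2472 CPM on the right. The summed level of 9 macrophage genes was lowest in that pair, at 168.1 and 162.9 CPM. The part of these lists in the endothelial values was not tested. Without the pair the differences of Kdr, Egfl7 and Plvap turned negative.

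**Figure D3:**
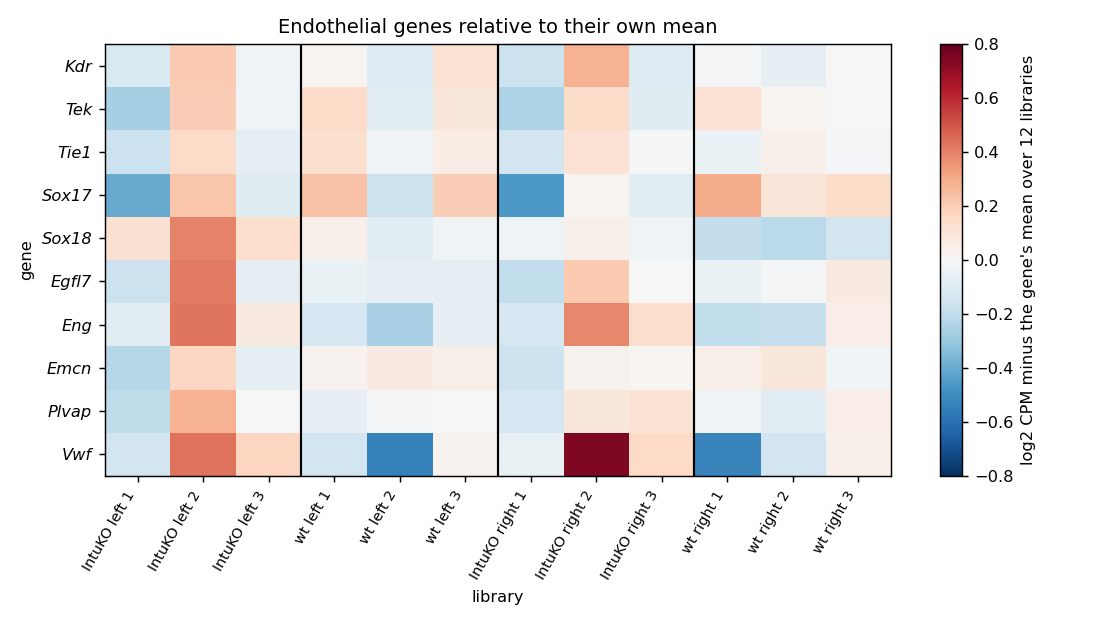
Log2 level of each of the 10 genes in each library relative to that gene's mean over the 12 libraries, drawn as colour with the scale beside it; rows are genes and columns are libraries by group. The columns of IntuKO left 2 and right 2 are above the mean for all 10 genes, and those of IntuKO left 1 and right 1 are mostly below it.

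Over the 12 libraries, the mean of the 10 genes was followed most closely by Egfl7 and Kdr, which correlated with the mean of the other 9 at r = 0.904 and 0.895, and least closely by Sox17 and Sox18, at 0.474 and 0.449. These correlations describe libraries that include the pair above, and carry no test. Among 7134 other genes with at least 5 CPM on average, those most like the mean of the 10 were Itpkb (r = 0.961), Fgfr3 (0.959), Cd44 (0.948), Dennd2d (0.947), Sel1l3 (0.939), Synm (0.937), Col4a1 (0.936) and Scrn3 (0.933). Without the pair of IntuKO libraries numbered 2, over 10 libraries, their correlations lay between 0.808 and 0.919 and their ranks between 6 and 62.

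Between left and right lungs, Sox18 alone of the 10 was higher on the left in every same-numbered pair. In IntuKO lungs 0 of the 10 genes were called (0.0% of all genes), and in wt lungs 0 were called (0.0105% of all genes), by edgeR's quasi-likelihood test without pairs; at an unadjusted p under 0.05 there was 1 of 10 in each genotype, Sox18, against 3.76% and 2.62% of all genes in IntuKO and wt lungs. Left Sox18 exceeded right Sox18 by a log2 difference of 0.23 (SE 0.07, edgeR adjusted p = 1.0) in IntuKO and 0.16 (SE 0.07, edgeR adjusted p = 1.0) in wt lungs. It was higher on the left in 6 of 6 pairs, which 6.5% of all genes matched in either direction and 3.46% in this one. In a fit with the 6 pairs as a block, as the mean of both genotypes, a comparison added after the data were seen, the difference was 0.20 (SE 0.04, edgeR adjusted p = 0.014), where 127 of 9519 genes (1.33%) were called. Without pairs the same comparison gave an adjusted p of 0.461 in edgeR, with 8 genes (0.084%) called. In the paired fit of each genotype alone the adjusted p was 0.115 in IntuKO lungs (0.452% of all genes called) and 0.466 in wt lungs (0.662% called). The other 9 genes were higher on the left in 2 to 4 of the 6 pairs.

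**Figure D4:**
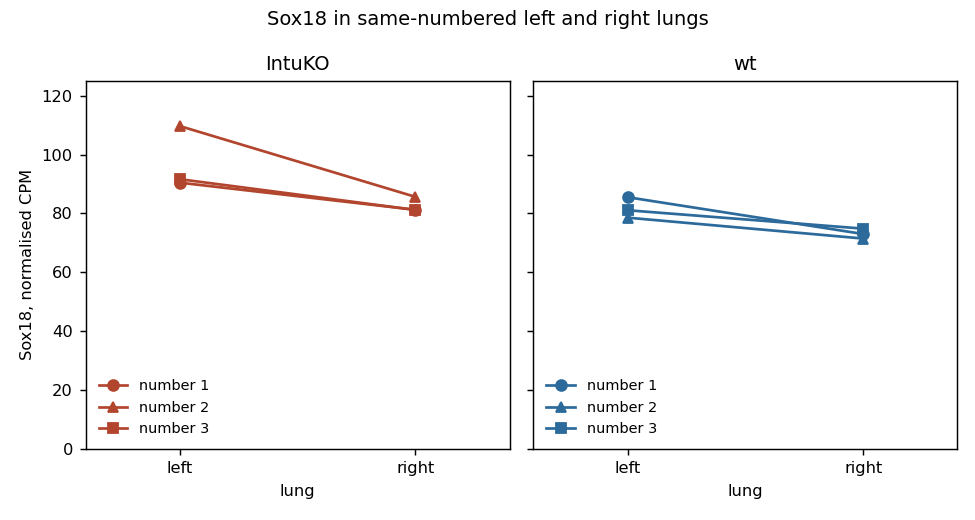
Sox18 CPM (y axis) in the left and right lung of each same-numbered pair (lines), for IntuKO and wt embryos. In all 6 pairs the left lung is higher.

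Whether IntuKO changed the 10 genes differently on each side was asked with the interaction of genotype and side. None was called (0.0% of all genes were), 0 of the 10 had an unadjusted p under 0.05 (1.3% of all genes had) in edgeR's test. The interaction estimate for Sox18 was 0.07 (SE 0.10, 95% interval -0.15 to 0.30, edgeR adjusted p = 1.0). For Sox17 it was 0.17 (SE 0.22, 95% interval -0.31 to 0.65, edgeR adjusted p = 1.0).

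Other vascular genes were described from 8 lists of ligands, regulators and endothelial markers, chosen with earlier results of these data known, and Angpt2 was called higher. Of all genes tested, 5.7% were called in this comparison, 2.08% higher and 3.62% lower. A single call in a list, here and in the paragraphs below, is therefore not a result about that list. Of the 6 tested angiopoietin and TIE regulator genes, 1 was called higher and 1 lower, with a median log2 difference of 0.12. Angpt2, the angiopoietin that can oppose the activation of TEK, had 22.9, 21.5 and 17.5 CPM in IntuKO left lungs and 20.02, 23.5 and 16.5 CPM in IntuKO right lungs, against 11.9, 11.99 and 13.1 CPM in wt left and 12.2, 12.4 and 12.7 CPM in wt right lungs. The IntuKO and wt libraries did not overlap on either side, which held in the same direction on both sides for 5.8% of all genes (2.23% higher). The log2 difference of Angpt2 was 0.71 (SE 0.10, edgeR adjusted p = 0.000598), it was called in all 18 leave-out fits and the summed fit gave an edgeR adjusted p of 0.0294. Angptl1, a low gene at 14 to 54 counts per library, was called lower by -0.92 (SE 0.25, edgeR adjusted p = 0.0481), a call that 13 of the 18 leave-out fits and the summed fit (edgeR adjusted p = 0.23) lost.

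Of the 4 tested VEGF ligands and co-receptors, 1 was called lower and 0 higher. Their log2 differences were 3 positive and 1 negative, with a median of 0.16. Vegfc, a ligand of the lymphatic receptor, averaged 23.4 ± 1.69 and 22.3 ± 0.964 CPM in IntuKO left and right lungs, against 27.3 ± 0.228 and 27.0 ± 3.04 CPM in wt left and right lungs (SD, n = 3; log2 difference -0.25, edgeR adjusted p = 0.0492), and 14 of the 18 leave-out fits and the summed fit (edgeR adjusted p = 0.223) lost the call. Of 6 endoglin and ALK1 pathway genes, 1 rose and 1 fell. Id1, a target of bone morphogenetic protein signals, averaged 104 ± 6.85 and 94.9 ± 4.91 CPM in IntuKO, against 87.1 ± 11.1 and 79.8 ± 6.43 CPM in wt left and right lungs (SD, n = 3; log2 difference 0.25, edgeR adjusted p = 0.0336, lost in 11 leave-out fits and in the summed fit, adjusted p = 0.185). Tgfb1 fell by 0.27 on the log2 scale (edgeR adjusted p = 0.0132), a call lost without both libraries of IntuKO 3 or of wt 2 and with the pairs as a random block in limma-voom (adjusted p = 0.0627).

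Of the 8 tested endothelial transcription factors other than the members, 0 rose and 1 fell, and 7 of 8 had a negative log2 difference, with a median of -0.13. Lmo2, a partner of endothelial and blood transcription factors, averaged 66.6 ± 5.72 and 63.9 ± 1.88 CPM in IntuKO left and right lungs, against 76.4 ± 3.57 and 75.6 ± 5.78 CPM in wt left and right lungs (SD, n = 3). Its log2 difference was -0.22 (SE 0.05, edgeR adjusted p = 0.0271), with an adjusted p of 0.156 in the summed fit and the call lost in 12 of the 18 leave-out fits. Among 11 arterial and Notch genes 1 fell and 0 rose, with a median of -0.16. Efnb2, the ephrin ligand that marks arterial endothelium, averaged 182 ± 14 and 175 ± 16.3 CPM in IntuKO, against 220 ± 8.76 and 210 ± 1.14 CPM in wt left and right lungs (SD, n = 3). Its log2 difference was -0.27 (SE 0.05, edgeR adjusted p = 0.00567), called in all 18 leave-out fits, with an adjusted p of 0.0867 in the summed fit.

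Of the 5 tested venous genes 1 fell, Ackr1, at 20 to 48 counts per library (log2 difference -0.70, SE 0.14, edgeR adjusted p = 0.0106), a call lost without both libraries of wt 2 and in the summed fit (edgeR adjusted p = 0.106). The venous log2 differences were 2 positive and 3 negative, with a median of -0.03. Of the 17 other endothelial surface and junction genes 1 fell and 0 rose, with a median of -0.00. Thbd, which encodes thrombomodulin, an anticoagulant receptor of the endothelial surface, averaged 349.8 ± 5.51 and 343.9 ± 11.8 CPM in IntuKO, against 412.5 ± 29.0 and 388 ± 16.1 CPM in wt left and right lungs (SD, n = 3). The log2 difference of Thbd was -0.21 (SE 0.04, edgeR adjusted p = 0.0081), a call lost without both libraries of IntuKO 3 (adjusted p = 0.051) and in the summed fit (adjusted p = 0.0967). None of the 6 lymphatic genes was called, with 2 positive and 4 negative log2 differences and a median of -0.11. Prox1, the transcription factor that sets lymphatic identity, averaged 14.7 ± 2.5 and 15.25 ± 1.81 CPM in IntuKO, against 18.2 ± 5.73 and 16.6 ± 2.15 CPM in wt left and right lungs (SD, n = 3). Without the IntuKO libraries numbered 2, the genes called lower were 2 of 11 arterial, 2 of 5 venous and 2 of 17 surface genes. In the same fit 1 of 6 lymphatic genes was called in each direction. That fit called 553 genes in all, and these small counts are not results about the lists.

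**Figure D5:**
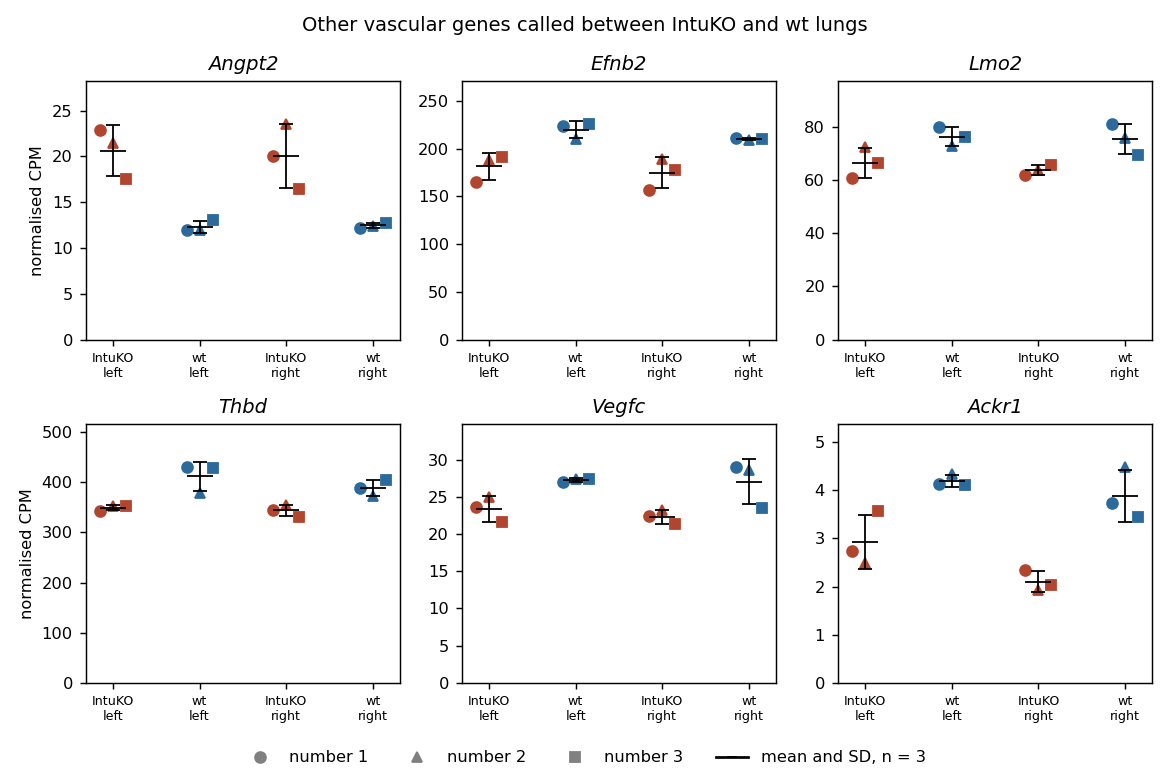
Normalised CPM (y axes, from 0) of 6 other vascular genes called between IntuKO and wt lungs, in every library by group; marker shapes give the library number and black bars the mean and SD (n = 3). On each side the IntuKO libraries lie above the wt libraries for Angpt2 and below them for Efnb2, Lmo2, Thbd, Vegfc and Ackr1. Of all genes, 5.8% separate in the same direction on both sides.

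Some markers of other cells of the lung differed between IntuKO and wt lungs. These lists were chosen with earlier results of these data known. Of all genes tested, 5.7% were called in this comparison, 2.08% higher and 3.62% lower. Of 9 macrophage genes 6 fell and 0 rose, with a median of -0.53, and their summed level was 162.9 to 209.6 CPM in IntuKO libraries against 229.9 to 265 CPM in wt libraries. Laptm5 had the smallest p among them, with a log2 difference of -0.53 (SE 0.06, edgeR adjusted p = 0.000105). Among the megakaryocyte and platelet genes, Pf4 (platelet factor 4) averaged 10.1 ± 1.61 and 9.54 ± 0.259 CPM in IntuKO, against 19.5 ± 5.03 and 14.1 ± 0.867 CPM in wt left and right lungs (SD, n = 3; log2 difference -0.76, edgeR adjusted p = 0.0022). Of 4 pericyte and mural genes 1 fell, Des (log2 difference -0.29, SE 0.06, edgeR adjusted p = 0.0166), and 0 rose; Rgs5, a defining gene of pericytes, averaged 82.3 ± 21.2 and 93.0 ± 19.1 CPM in IntuKO, against 72.0 ± 25.2 and 84.8 ± 34.2 CPM in wt left and right lungs (SD, n = 3). Of 8 mesenchyme genes 2 rose, Prrx1 (log2 difference 0.86, SE 0.09, edgeR adjusted p = 7.03e-05) and Col3a1 (0.19, SE 0.04, edgeR adjusted p = 0.0237), and none of the 8 erythroid genes was called. In the summed fit Laptm5, Mrc1, Pf4, Ppbp and Prrx1 were called. The macrophage genes C1qb (edgeR adjusted p = 0.061) and Spi1 (0.0705), the platelet genes Gp9 (0.15) and Gp6 (0.109), and Des (0.137) and Col3a1 (0.179) were not called in it. Of 4 epithelial genes 1 rose (Elf3), and of 3 mesothelial genes 1 fell (Upk3b). Of 3 heart genes 1 rose (Myl2, a low gene at 0 to 45 counts per library) and 1 fell (Actc1), and none of 3 liver genes was called. Without both IntuKO libraries numbered 2 Myl2 was not called (edgeR adjusted p = 0.0605). In the summed fit Actc1 was called, while Elf3 (edgeR adjusted p = 0.203), Upk3b (0.0884) and Myl2 (0.124) were not, and 13 of the 18 leave-out fits lost Elf3. The part of these cells in the endothelial values was not tested, and Cdh5, Nkx2-1, Epcam and Itga2b were not analysed here.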

How the data were processed

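Total RNA of 12 lung samples was sequenced, 3 per group. The deposited table holds unnormalised whole-number counts for each gene; FastQC, HISAT2, featureCounts and the GRCm38 build are named in the submitters' processing notes. The sources used here give neither tool versions nor the strand setting. The table as used here ends within a row on chromosome 8, and the 1 incomplete row was left out. Gene symbols were matched by Ensembl ID for 30915 of 31078 genes (99.5%). Replicates of a group differed by more than sampling noise.

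Genes with low counts were left out by filterByExpr of edgeR (at least 10 counts and a total of 15), which kept 9519; TMM scaling factors ran over 0.992 to 1.01. edgeR 4.0.16 in R 4.3.3 (glmQLFit, glmQLFTest) fitted the 12 libraries in 4 groups with 8 residual degrees of freedom, and p-values were adjusted by Benjamini-Hochberg over all genes tested, with a threshold of 0.05. CPM uses the tested genes' library sizes and the TMM factors, and CPM per kilobase divides by the deposited gene length. Log2 levels used a prior count of 2. Alternatives were DESeq2 1.42.0, DESeq2 size factors, no filter, limma 3.58.1 voom with pairs as a random block, pair blocks, left and right counts summed per number, and leaving out libraries or pairs.

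The members and the 19 lists (228 symbols, 132 in the table) were chosen with earlier results of these data known. Every member is named, Intu and Gli1 check the labels, each other list gives up to 4 called genes by smallest p and its defining markers, and 8 genes are named for likeness. The numbers pair left and right within a genotype by their correlated deviations (0.253 to 0.486 in 6 pairs, against -0.393 to -0.00284 for different numbers), a hint from the data; across genotypes they correlated at -0.121 to -0.0416.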

Additional observations from a re-analysis of the deposited data

How the results depend on the processing

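Each group has 3 libraries, and the 1 call among the 10 genes moved with several settings. For IntuKO over wt as the mean of both sides the call of Sox18 alone became 4 members with no filter on low counts (Sox17, Eng, Sox18, Vwf; 1084 genes called, against 543) and 2 with DESeq2 (Eng, Sox18; 665 called), 0 with limma-voom and the pairs as a random replicate block (344 called) and 0 with left and right summed (141 called), and between 0 and 3 when a library or pair was left out (263 to 636 called); the cause was not tested, though the summed fit has fewer samples. The replicate block by number across genotypes kept the call of Sox18 (edgeR adjusted p = 0.0297, 652 genes called). That block does not model the left and right pairs within a genotype, so it is no check on the correlation within pairs. With no filter, 2 members (Eng, Vwf) were called in left lungs (510 genes, against 112) and 2 (Eng, Vwf) in right lungs (595, against 144). The unfiltered fit gave smaller standard errors, for Vwf as the mean of both sides 0.07 against 0.15, so its calls are not on a par with the main fit. With left and right as paired blocks, 1 member (Sox18) was called between sides as the mean of both genotypes (127 genes, against 8). Directions turned in leave-out fits, with log2 ranges for the mean of both sides of -0.0934 to 0.1134 for Kdr, -0.205 to 0.0142 for Tek, -0.1249 to 0.0268 for Tie1, -0.0758 to 0.1854 for Egfl7 and -0.0283 to 0.1511 for Plvap. In left lungs they were -0.0841 to 0.092 for Kdr, -0.1956 to 0.0391 for Tek, -0.0544 to 0.2647 for Egfl7, -0.1996 to 0.0057 for Emcn and -0.0675 to 0.1822 for Plvap. In right lungs they were -0.1031 to 0.1348 for Kdr, -0.074 to 0.0598 for Tie1 and -0.0975 to 0.106 for Egfl7, and for the Sox18 interaction -0.0234 to 0.1276. Of 1696 recomputed values, 1447 were classed as the same as in the main fit. For a gene this meant the same direction and side of the threshold, and for a count of called members an equal or similar count. For the lowest, median and highest difference it meant a move of at most the mean SE. The values include members that were not called in the main fit and stayed uncalled.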

Other observations

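The ratio of Eng to Kdr CPM was 1.10, 1.24 and 1.14 in IntuKO left lungs and 1.09, 1.15 and 1.25 in IntuKO right lungs, against 0.956, 0.955 and 0.944 in wt left lungs and 0.937, 0.989 and 1.11 in wt right lungs. The ratio of Vwf to Kdr was 0.181, 0.215 and 0.211 in IntuKO left lungs and 0.199, 0.255 and 0.221 in IntuKO right lungs, against 0.164, 0.136 and 0.175 in wt left lungs and 0.129, 0.175 and 0.190 in wt right lungs. In left lungs every IntuKO value of both ratios was above every wt value, and in right lungs this held for Vwf to Kdr only. There wt right 3 had an Eng to Kdr ratio of 1.11, above 1.09 in IntuKO right 1. Both ratios were chosen after the values were seen and carry no test.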
